A study of Mus musculus with 2 samples.

Results

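The endothelial cells of the mouse pancreas at embryonic day 13.5 were taken as 63 cells out of 6883 kept cells of 2 droplet libraries, 28 in the control library and 35 in the library labelled knockout. A cell counted as endothelial when Pecam1, Cdh5, Kdr, Cldn5 and Esam together had at least 5 UMIs (unique molecular identifiers, each standing for 1 captured transcript) with at least 3 of these 5 genes detected, and when the epithelial adhesion genes Epcam and Cdh1 together had fewer than 2. Cells were kept from 500 detected genes and 1000 UMIs upward, with a mitochondrial share of up to 10%. Because the 5 gate genes chose the cells, their values and all contrasts of these cells with other cells are given as description.

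The study set 1 control embryo beside 1 embryo titled knockout, named Dpy30∆P in the series text, both of strain C57BL/6 and both at embryonic day 13.5. Dpy30 encodes a core subunit of the COMPASS complexes that methylate lysine 4 of histone H3. From each embryo live cells were sorted with 7-AAD as a dead-cell stain and loaded on a Chromium 3' version 2 chip for a target of 5000 cells. No Cre driver, deleted exon or control allele is named in the labels (not given in the sources used here), so whether the endothelium carried the deletion is not known from the labels. With a single library and embryo per group, differences between the libraries have no replicate check and no test was run. All intervals are 95% and cover counting error alone.

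The matrices held 3900 control and 3044 knockout-labelled barcodes with 32702089 and 28033433 UMIs, of which 3871 and 3012 were kept. Among the barcodes, 22 occurred in both matrices. Of these, 2 belonged to endothelial cells of the knockout-labelled library, 0 to endothelial cells of the control library, and no barcode was endothelial in both. The endothelial cells were deeper than the rest, with medians of 9330 UMIs (range 5884 to 22302) and 11186 UMIs (4799 to 20397) against 6811 and 8006 in the other kept cells. In all, they held 302508 and 407790 UMIs. Their median mitochondrial share was 2.22% and 2.81%, against 2.17% and 2.60% in the other cells.

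Dpy30 was present at a like level in the endothelial cells of both libraries. It had 34 UMIs in 21 of 28 control cells (112 CPM, UMIs per 1000000 UMIs of the summed cells, 95% exact Poisson interval 77.8 to 157) and 52 UMIs in 21 of 35 knockout-labelled cells (128 CPM, 95.2 to 167), a log2 ratio of 0.17 on the (CPM + 5) scale used throughout. In the other kept cells Dpy30 stood at 148 and 158 CPM. The 3' tag may lie outside the deleted part and then checks nothing, and the genotype rests on the label. The embryos differed in sex, since Xist had 0 UMIs in the control and 535 UMIs in 34 of 35 knockout-labelled endothelial cells, while the Y-linked Ddx3y had 13 and 0 UMIs and Eif2s3y 15 and 0. Sex and genotype cannot be told apart here.

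Endothelial cells line blood and lymphatic vessels, and they are joined by VE-cadherin (Cdh5) and claudin-5 (Cldn5). They grow and branch toward vascular endothelial growth factor (VEGF) through the receptor Kdr. They specialise into arterial, venous and lymphatic cells under Notch, Nr2f2 and Prox1, and recruit mural cells with Pdgfb. In the developing pancreas, vessels run through the mesenchyme around the branching epithelium, and signals from endothelium to epithelium are known to affect pancreatic bud growth and endocrine differentiation.

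Transcription factors of the ETS family, which bind a GGAA core, are active in endothelium, and Erg, Fli1, Ets1 and Elk3 of that family were high in these cells. The 250 bases before the annotated start of 4 genes high in the endothelial cells are shown because they hold the hexamers AGGAAG or CCGGAA, each searched on both strands. Emcn encodes the surface sialomucin endomucin, Kdr and Flt1 the VEGF receptors, and Plxnd1 a semaphorin receptor. Sequences are from RefSeq (GRCm38.p6), written 5' to 3' on the gene's strand, with matches in capitals, where CTTCCT and TTCCGG are the same hexamers on the opposite strand.
Emcn (chr3:137340828-137341077, plus strand): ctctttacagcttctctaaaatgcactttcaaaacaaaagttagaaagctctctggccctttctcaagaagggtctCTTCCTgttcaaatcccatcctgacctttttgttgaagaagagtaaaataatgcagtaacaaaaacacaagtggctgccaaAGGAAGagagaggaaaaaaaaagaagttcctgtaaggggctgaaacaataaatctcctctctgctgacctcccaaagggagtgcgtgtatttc
Kdr (chr5:75978456-75978705, minus strand): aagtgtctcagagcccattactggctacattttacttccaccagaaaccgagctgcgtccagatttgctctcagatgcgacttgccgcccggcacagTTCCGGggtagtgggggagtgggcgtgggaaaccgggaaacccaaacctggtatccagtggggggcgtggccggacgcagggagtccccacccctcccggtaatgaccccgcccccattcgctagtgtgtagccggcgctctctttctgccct
Flt1 (chr5:147726012-147726261, minus strand): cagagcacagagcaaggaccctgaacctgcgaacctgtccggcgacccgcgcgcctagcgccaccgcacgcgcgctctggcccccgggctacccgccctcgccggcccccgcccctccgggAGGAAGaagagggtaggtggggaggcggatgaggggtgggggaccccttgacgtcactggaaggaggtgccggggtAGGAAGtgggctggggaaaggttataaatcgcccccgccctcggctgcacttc
Plxnd1 (chr6:115995006-115995255, minus strand): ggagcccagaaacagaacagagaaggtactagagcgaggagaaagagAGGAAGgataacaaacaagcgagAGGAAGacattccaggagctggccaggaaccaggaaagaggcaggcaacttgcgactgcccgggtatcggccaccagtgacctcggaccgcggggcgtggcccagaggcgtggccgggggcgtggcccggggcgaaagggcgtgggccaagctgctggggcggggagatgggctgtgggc
The table of promoters matched 14 of the 24 genes named below as high in endothelial cells. AGGAAG occurred in 6 of these 14 windows (42.9%) against 29.2% of 27025 windows of the table, and CCGGAA in 1 of 14 (7.14%) against 12.2%. Either hexamer occurred in 7 of 14 (50%) against 38.0%. Cldn5, Gimap6, Ctla2a and Myct1 were among those without a match. These are letter matches in a fixed window and not binding sites.

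The gate left a gap between the endothelial cells and the rest. The summed UMIs of the 5 genes ran from 9 to 58 in the control cells (median 27.5) and from 14 to 46 in the knockout-labelled cells (median 25). Just outside the gate, 1 control cell had 6 UMIs of a single gate gene and the next had 3, and the highest knockout-labelled cell outside had 3. All 5 genes were detected in 20 control and 32 knockout-labelled cells, 4 genes in 6 and 3 cells, and 3 genes in 2 and 0 cells.

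**Figure D1:**
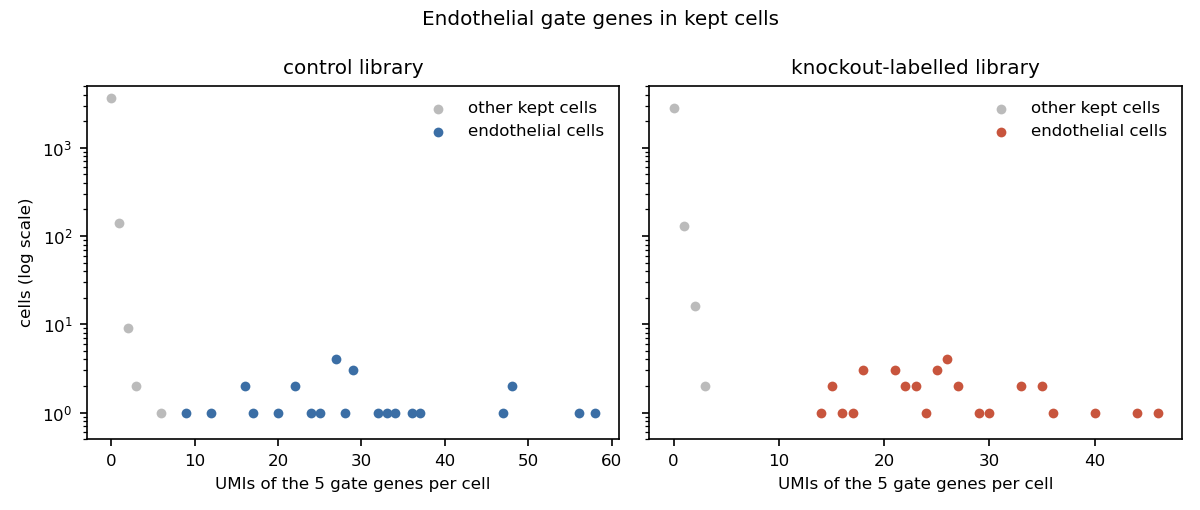
Cells by the summed UMIs of Pecam1, Cdh5, Kdr, Cldn5 and Esam in each library (x axis, UMIs per cell) against the number of cells (y axis, log scale), with other kept cells in grey and endothelial cells in colour. Other cells reach at most 6 UMIs, while endothelial cells start at 9 in the control and at 14 in the knockout-labelled library.

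Cldn5 stood at 1061 CPM (interval 948 to 1184) and 674 CPM (597 to 759) in the endothelial cells, and Cdh5 at 469 CPM (395 to 553) and 463 CPM (399.8 to 534). Esam, an immunoglobulin-type adhesion molecule, stood at 486 and 429 CPM, Pecam1 (CD31) at 439.7 and 309 CPM and Kdr at 304 and 336 CPM. In other kept cells a UMI of any of the 5 genes occurred in 3.96% of the control and 5.01% of the knockout-labelled cells, and Cdh5 alone in 0.130% and 0.168%.

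Endothelial cells made up 0.723% of kept control cells (28 of 3871, exact Clopper-Pearson interval 0.481 to 1.04) and 1.16% of kept knockout-labelled cells (35 of 3012, 0.811 to 1.61). The ratio of the shares was 1.61, with an interval of 0.980 to 2.63 that includes 1. A share of sorted and loaded cells is not a number of cells per pancreas.

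Markers of other cell types were at or near 0 in most of these cells. Summed over each list, the epithelial markers (9 genes) reached at most 3 UMIs in a control and 2 in a knockout-labelled endothelial cell, mesothelial markers (6 genes) at most 2 and 1, neural markers (6 genes) at most 1 and 1, and immune markers (7 genes) at most 1 and 2. Ptprc, Tyrobp, Cd52 and C1qb, defining genes of blood cells and macrophages, had 0 UMIs in both libraries. The mesenchymal markers (8 genes) were at 0 in 18 of 28 and 26 of 35 cells but reached 28 and 12 UMIs, with 2 cells of 5 or more in each library. The control cell with 28 mesenchymal UMIs was also the deepest endothelial cell, with 22302 UMIs, and values without it are given beside the lymphatic and the G2 and mitosis results below, an alternative chosen after seeing the data. Mural markers (9 genes) reached 5 and 11 UMIs. Globin and other erythroid genes had a median of 1 UMI per control and 4 per knockout-labelled endothelial cell, against 1 and 3 in the other kept cells.

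Set against all other kept cells, the endothelial cells were highest in genes such as Emcn, Icam2, Aplnr and Gimap6 outside the gate, and lowest in Spp1, Ttr, Cpa1 and Gpc3. A gene was called when its log2 ratio was at least 1, a 2-fold difference, in the same direction in both libraries. Of 4218 genes tested (those with at least 20 endothelial UMIs over both libraries, or at least 50 CPM in the other cells of both), 492 were higher in endothelial cells (11.7%) and 211 lower (5%). The median log2 ratio over all tested genes was 0.02 in the control and 0.04 in the knockout-labelled library.

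Emcn (chr3:137341067-137432185, GRCm38) stood at 413 CPM in control endothelial cells and 0.341 CPM in the other control cells, and at 539 against 0.146 CPM in the knockout-labelled library. It was seen in 26 of 28 and 32 of 35 endothelial cells. Icam2, an integrin ligand, stood at 380.2 and 356 CPM against 0.528 and 0.476 CPM in other cells, and the apelin receptor Aplnr (chr2:85136225-85139923) at 321 and 399.7 CPM against 0.186 and 0.329 CPM. These 3 genes were high in the endothelium of both libraries and under 1 CPM in the other cells.

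The GTPases of immunity-associated proteins Gimap6, Gimap4 and Gimap1, neighbours on chromosome 6, stood at 321, 192 and 179 CPM in the control and 405, 231 and 181 CPM in the knockout-labelled endothelial cells. Gimap6 was also present in immune cells (29.7 and 46.7 CPM), and Gimap4 there at 4.76 and 3.89 CPM. The immune markers Ptprc, Tyrobp, Cd52 and C1qb were at 0 in the endothelial cells. The surface sialomucin Cd34 stood at 496 and 468 CPM against 10.6 and 5.82 CPM in the other cells.

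Among the remaining genes that the ranking named, Flt1 and Plxnd1 are receptors for VEGF and semaphorins, Cd93 is a surface lectin-like receptor, Ecscr is an endothelial surface regulator, and Gpihbp1 carries lipoprotein lipase across capillaries. The log2 ratio over other cells, taken from the library where it was lower, was 5.27 for Flt1, 4.61 for Plxnd1, 5.24 for Cd93, 4.75 for Ecscr and 4.67 for Gpihbp1. Ctla2a reached 5.28, Fabp4 5.23, Myct1 5.03, Pcdh17 4.99, Col15a1 4.75, S100a16 4.67 and Lmo2 4.54. S100a16, a calcium-binding protein, was seen in all 28 and all 35 cells.

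The genes furthest below the other cells included Spp1, Ttr, Cpa1, Gpc3, Ambp, Ctrb1, Clps, Ptn and Dlk1. Spp1, a secreted phosphoprotein and 1 of the epithelial markers, had 2 UMIs in each library's endothelial cells (6.61 and 4.90 CPM) against 726 and 372 CPM in the other cells. The acinar enzyme gene Cpa1 had 5 and 3 UMIs and Ctrb1 7 and 2, against 439 and 268 CPM for Cpa1 and 439.8 and 252 CPM for Ctrb1 in other cells. Ttr had 3 and 3 UMIs, Ambp 4 and 4 and Clps 8 and 4.

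The secreted growth factor gene Ptn stood at 142 and 152 CPM against 2192 and 2159 CPM in other cells, and at 3521 and 3258 CPM in mesenchyme. Dlk1, a Delta-like surface protein, stood at 132 and 137 CPM against 1928 and 1919 CPM. Gpc3, a glypican, stood at 19.8 and 29.4 against 519.9 and 631 CPM. Ptn was concentrated in few endothelial cells, seen in 9 of 28 and 12 of 35, with up to 20 and 32 UMIs in a cell. Without the cells of 5 or more mesenchymal UMIs the log2 ratio over other cells, from the library where it was nearer to 0, went from -3.78 to -5.70 for Ptn, from -3.76 to -5.69 for Dlk1 and from -4.21 to -6.37 for Gpc3.

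Pan-endothelial genes outside the gate were higher than in other cells in both libraries. Of 30 further pan-endothelial genes outside the gate, 28 passed the minimum of 20 UMIs and 28 of these 28 were higher in both libraries, with median log2 ratios of 3.89 and 4.06. A gene that passes the minimum through the endothelial cells themselves had to be high there, so this count and those of the lists below are a description. Over all 4218 tested genes 11.7% were higher and 5% lower. Egfl7, a secreted matrix factor, stood at 843 and 647 CPM, Ramp2, a partner of the adrenomedullin receptor, at 443 and 588 CPM, and Plvap, the diaphragm protein of fenestrated capillaries, at 162 and 255 CPM. Nos3, endothelial nitric oxide synthase, had 6 and 6 UMIs, and Adgrl4, an adhesion receptor, 5 and 13, so both fell under the minimum.

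For VEGF, the receptors Kdr, Flt1 and Flt4 were highest in the endothelium, and Vegfa, Figf and Pgf in other classes. Those classes were gated strictly on their own markers, which left 4191 of the 6883 kept cells without a class, so their levels stand for the cells that pass a strict gate. Flt1 stood at 274 CPM (interval 219 to 340.1) and 199 CPM (158 to 247) in the endothelial cells, and at most 3.16 CPM in any other class. Kdr was next highest in mesothelium, at 21.1 and 17.5 CPM.

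Flt4, the receptor of VEGF-C and VEGF-D, stood at 106 and 53.9 CPM and at most 1.21 CPM elsewhere. The co-receptor Nrp1 was shared, with 327 and 226 CPM in endothelium, 264 and 225 CPM in mesenchyme and 109.6 and 100.1 CPM in epithelium. Nrp2 stood at 536 and 297 CPM in endothelium against 34.6 and 47.0 CPM in mesenchyme and 75.6 and 105 CPM in mesothelium.

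Vegfa, the main ligand of Kdr and Flt1, had 0 UMIs in the 28 control endothelial cells, where 3 counts would be 9.92 CPM, and 1 UMI in the 35 knockout-labelled cells. In epithelium it stood at 23.9 and 26.2 CPM and in mesenchyme at 13.9 and 17.8 CPM. The ligand of Flt4, Figf (VEGF-D), had 0 UMIs in endothelium of both libraries and 70.8 and 34.6 CPM in mesenchyme. Vegfc had 2 and 4 UMIs in the endothelial cells.

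The angiopoietin receptors were likewise highest in the endothelium. Tie1 stood at 145 and 105 CPM and Tek, which encodes the angiopoietin receptor Tie2, at 26.4 and 49.0 CPM in endothelium, with at most 4 UMIs of either gene in any other class of a library. Ptprb, a phosphatase that acts on Tie2, stood at 43.0 and 56.4 CPM. Angpt1 had 0 endothelial UMIs in both libraries and 13 and 28 UMIs in mesenchyme (2.44 and 6.54 CPM). Angpt2 had 2 and 0 UMIs in the endothelium.

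**Figure D2:**
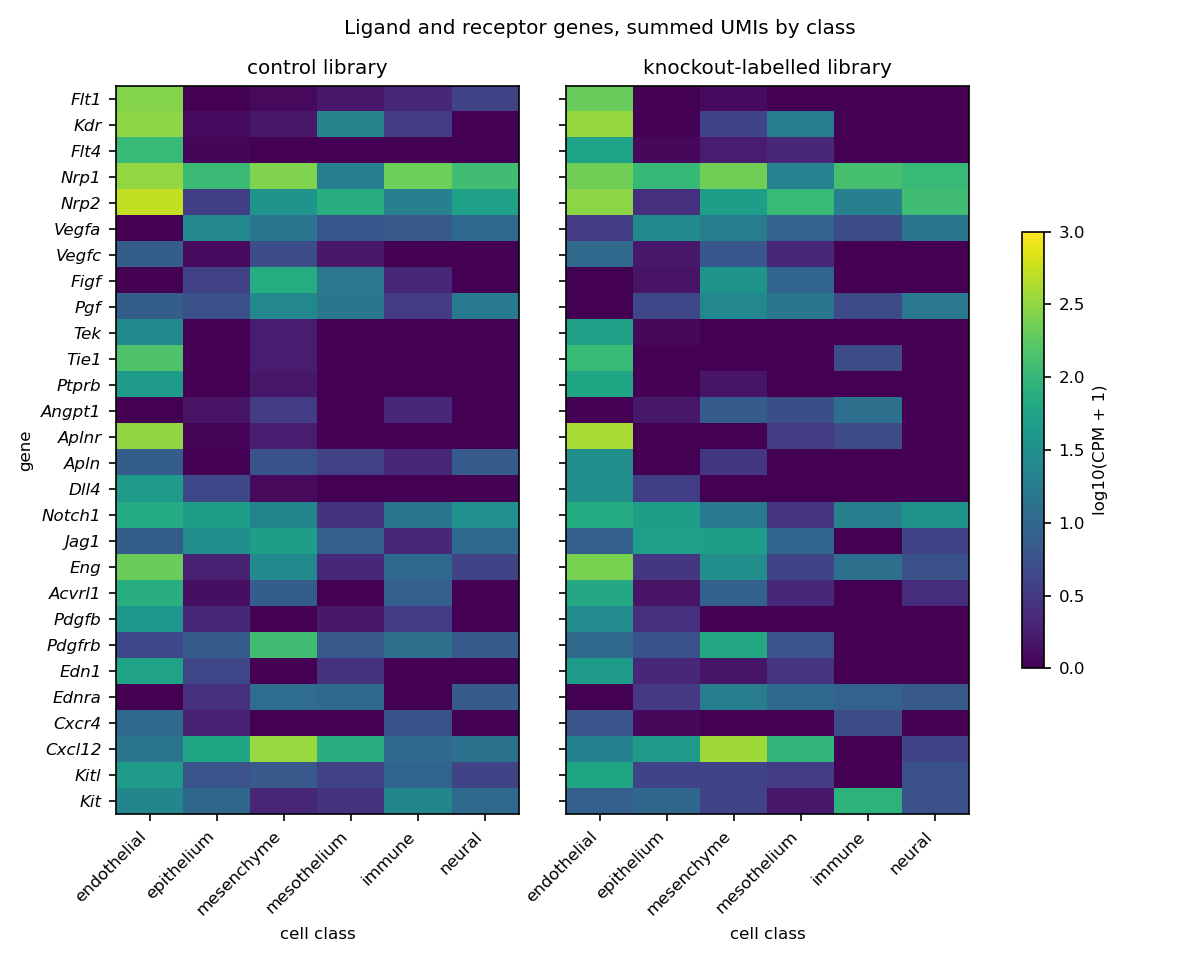
Levels of 28 ligand and receptor genes (rows) in 6 gated cell classes (columns) of the control library (left) and the knockout-labelled library (right), as log10(CPM + 1) of UMIs summed over the cells of a class. Flt1, Kdr, Flt4, Tie1, Tek and Aplnr are bright in the endothelial column, while Figf, Cxcl12 and Pdgfrb are bright in mesenchyme.

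Of the signals that endothelium is known to send, 7 of 10 tested list members were higher than in other cells and 1 was lower. Pdgfb, which attracts mural cells, stood at 36.4 and 27.0 CPM in endothelium and had 0 UMIs in mesenchyme, where its receptor Pdgfrb stood at 118 and 64.5 CPM. Endothelin-1 (Edn1) stood at 52.9 and 44.1 CPM, while its receptor Ednra had 0 endothelial UMIs and 10.7 and 17.3 CPM in mesenchyme. Kitl, the ligand of Kit, stood at 43.0 and 56.4 CPM.

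The chemokine Cxcl12 was the list member below the other cells, at 13.2 and 19.6 CPM in endothelium against 342 and 373 CPM in mesenchyme. Its receptor Cxcr4 had 3 and 2 endothelial UMIs. Hgf, Wnt2, Bmp6 and Sema3f had 0 UMIs in the endothelial cells of both libraries. The growth factor gene Igf2 stood at 463 and 586 CPM against 256 and 316 CPM in other cells, under the 2-fold threshold.

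Of the endothelial transcription factors, 14 of 16 tested were higher than in other cells, with medians of 2.56 and 2.80. Erg stood at 49.6 and 68.7 CPM with 0 UMIs in epithelium and mesenchyme of both libraries, Fli1 at 165 and 177 CPM, Ets1 at 225 and 186 CPM and Elk3 at 245 and 228 CPM. Fli1 was shared with immune cells (114 and 101 CPM), as was Mef2c, at 426 and 432 CPM in endothelium and 502 and 378 CPM in immune cells. Lmo2, a bridging protein of haematopoietic and endothelial factor complexes, stood at 142 and 218 CPM.

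Etv2 and Foxc2 had 0 UMIs in both libraries. Nr2f2 was under the other cells, at 109 and 128 CPM against 195 and 249 CPM, short of 2-fold, and Klf4 stood at 23.1 and 24.5 CPM against 50.8 and 50.5 CPM. Sox17 had 4 and 11 UMIs, under the minimum, and Sox18 had 4 and 16.

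All 7 caveola genes were higher in endothelial than in other cells, with medians of 2.62 and 2.81. Cav1, the main coat protein, stood at 344 and 378 CPM against 30.4 and 37.7 CPM, and Prkcdbp (Cavin-3) at 519 and 515 CPM. Among junction genes outside the gate, 2 of 8 tested were higher and 1 lower. Tjp1, the scaffold ZO-1, stood at 149 and 149.6 CPM against 24.5 and 25.5 CPM, and F11r at 95.9 and 118 CPM against 27.1 and 24.7 CPM. Pard3, a polarity protein, was the lower one, at 16.5 and 19.6 against 62.6 and 54.4 CPM.

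Basement membrane genes were higher for 8 of 13 tested, with medians of 1.50 and 1.25. The collagen IV chains Col4a1 and Col4a2 stood at 407 and 351 CPM and at 271 and 240.3 CPM, against 48.5 and 30.8 CPM and 39.1 and 26.6 CPM in mesenchyme. Perlecan (Hspg2) stood at 129 and 113 CPM and laminin alpha-4 (Lama4) at 116 and 63.8 CPM. Lama5 had 0 and 1 UMI. Sparc, at 1907 and 1712 CPM, was shared with mesothelium at 1932 and 1684 CPM and with mesenchyme at 1667 and 1407 CPM.

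Within the Notch pathway, 5 of 7 tested members were higher and 1 was lower. Notch1 stood at 69.4 and 68.7 CPM in endothelium, and the ligand Dll4 at 43.0 and 29.4 CPM. The fringe enzyme Mfng had 40 and 55 UMIs, with log2 ratios of 2.88 and 3.47 over other cells. Notch2 was the lower member, with 0 and 1 UMI against 69.3 and 72.8 CPM in other cells. With the minimum raised to 100 UMIs, members of at least 50 CPM in the other cells stayed in, among them Notch2. The medians of that smaller set were -2.49 and -1.88, from 1.67 and 1.45 at the minimum of 20.

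In the BMP and TGF-beta pathway 6 of 10 tested members were higher and 1 was lower. The higher ones included the endothelial co-receptor Eng (212 and 248 CPM against 16.7 and 20.8 CPM), its partner receptor Acvrl1 (76.0 and 63.8 CPM), Tgfbr2 and Bmpr2. Id1, a target of BMP signals, was lower than in other cells, at 192 and 174 CPM against 509 and 443 CPM. With the minimum raised to 100 UMIs in the same way, the medians were -0.34 and -0.31, from 1.28 and 1.16.

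Of the transport genes, 5 of 6 tested were higher than in all other kept cells, including the fatty acid carriers Fabp4 and Cd36. The others were the efflux pump Abcg2 (185 and 157 CPM against 30.1 and 33.9 CPM), the glucose transporter Slc2a1 and the water channel Aqp1. Cd36 was shared with immune cells, at 49.6 and 132 CPM in endothelium and 98.8 and 54.5 CPM in immune cells. Mfsd2a, a lipid transporter of the blood-brain barrier, had 0 UMIs in both libraries. Of the hemogenic genes 0 of 7 reached the minimum. Gfi1, Gfi1b, Spi1 and Myb had 0 UMIs, Runx1 had 1 and 1, and Kit had 7 and 3. Of 13 tested immediate early genes, which respond to dissociation as well as to signals, 0 were higher and 4 were lower than in other cells, with Fos at 288 and 206 CPM against 967 and 789 CPM.

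The 63 cells fell into groups that differed in lymphatic and arterial genes. Groups of cells were set apart after seeing the data, by UMIs of genes on the lymphatic and arterial lists, so the genes that define a group are no result in it. Cells with at least 3 of 7 lymphatic genes detected (Prox1, Lyve1, Pdpn, Flt4, Ccl21a, Reln and Mmrn1) numbered 5 of 28 in the control (17.9%, interval 6.06 to 36.9) and 1 of 35 in the knockout-labelled library (2.86%, 0.0723 to 14.9). The intervals overlap. Without the deepest control cell the control count was 4 of 27 (14.8%). No other cell had more than 2 of the 7 genes. After thinning each cell to 3000 UMIs the counts were 5 and 0.

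Ccl21a, the lymphatic chemokine that draws dendritic cells and T cells, had 60, 58, 149, 103 and 139 UMIs in the 5 control cells and 62 in the knockout-labelled cell, and 0 in the other 57 endothelial cells. The gene (chr4:42772860-42773993) has near-identical copies and 2 rows bear the name in the files, the other of which had 0 UMIs, so its identity among the copies is uncertain. In other kept cells it stood at 0.528 and 0.0732 CPM. Prox1, the lymphatic master regulator, had 2, 1, 7, 5 and 2 UMIs in the control cells and 2 in the knockout-labelled cell, and 1 UMI in 1 further control cell. Lyve1 was seen in 4 of the 5 control cells and not in the knockout-labelled one.

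These 6 cells had 0 UMIs of several genes that most remaining endothelial cells carried. Esam had 0 UMIs in the 6 cells and was seen in 48 of 48 remaining cells (491 CPM, both libraries pooled). Aplnr had 0 UMIs against 504 CPM in 46 of 48 remaining cells, Flt1 0 against 225 CPM in 40 of 48 and Apoe 0 against 229 CPM in 31 of 48, where 3 counts in the 6 cells would be 29.9 CPM. Thy1 was the reverse, with 30 UMIs in 5 of 6 cells and 0 in the 48 remaining cells. Maf, a transcription factor, stood at 219 against 19.5 CPM and Stab1, a scavenger receptor, at 269 against 39.1 CPM. These genes were picked by rank after their values were seen.

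The lymphatic cells were deep, with 6246, 16717, 18699, 19504 and 22302 UMIs in the control and 16887 in the knockout-labelled library. A score from simulated doublets, used only as an alternative, placed 4 of the 5 control cells and the knockout-labelled cell among the barcodes to remove, against 1 of 19 and 1 of 29 of the remaining cells. Mesenchymal UMIs in these 6 cells were 0, 1, 0, 1, 28 and 0, and epithelial UMIs at most 3. Whether any of them is a doublet was not tested beyond these values.

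Another group was set apart by the gap junction genes Gja4 and Gja5, known from arteries, with at least 4 UMIs summed over both genes. It held 4 of 28 control and 5 of 35 knockout-labelled cells, 14.3% in each (intervals 4.03 to 32.7 and 4.81 to 30.3). Gja4 had 5, 25, 32 and 17 UMIs in the control cells and 10, 4, 8, 18 and 6 in the others. Gja5 was seen in only 3 of the 4 control and 3 of the 5 knockout-labelled cells. After thinning to 3000 UMIs the group held 3 and 2 cells.

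Other genes of the arterial list were seen more often in these cells. Unc5b, a netrin receptor, was seen in 9 of 9 of these cells against 12 of 48 remaining cells (650.5 against 54.7 CPM, pooled), Hey1, a Notch target, in 8 of 9 against 7 of 48 (234 against 15.6 CPM), and Dll4 in 6 of 9 against 9 of 48 (142 against 21.5 CPM). Aplnr was seen in 1 of 9 against 46 of 48, Nrp2 in 1 of 9 against 42 of 48 and Igf1, a growth factor, in 0 of 9 against 30 of 48. Sat1, an enzyme of polyamine breakdown that ranking put first, was seen in 9 of 9, with 12, 37, 15 and 31 UMIs in the control cells but 2, 1, 2, 10 and 1 in the knockout-labelled ones.

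The remaining 19 control and 29 knockout-labelled cells shared Aplnr (18 of 19 and 28 of 29 cells) and Emcn (all 19 and all 29). Plvap was seen in 11 of 19 and 27 of 29 of them, at 194 and 294 CPM. Of the 11 tip cell genes listed, 6 could be tested over all endothelial cells and 6 of these 6 were higher than in other cells, with medians of 2.69 and 2.24. In the remaining cells Trp53i11, a tip cell list member, was seen in 12 of 19 and 17 of 29 and Esm1 in 6 of 19 and 6 of 29. Apln, the ligand of Aplnr, was seen there in 2 of 19 and 8 of 29, Angpt2 in 2 of 19 and 0 of 29, and Mcam in 5 of 19 and 4 of 29. Tip cell genes were not particular to the remaining cells. In the cells with Gja4 and Gja5, Esm1 was seen in 3 of 4 and 3 of 5 and Mcam in 4 of 4 and 4 of 5. Trp53i11 was seen in 1 of 4 and 1 of 5 of those cells. Fabp4 was uneven, absent in 11 of 28 and 13 of 35 endothelial cells and reaching 9 and 48 UMIs in a cell.

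**Figure D3:**
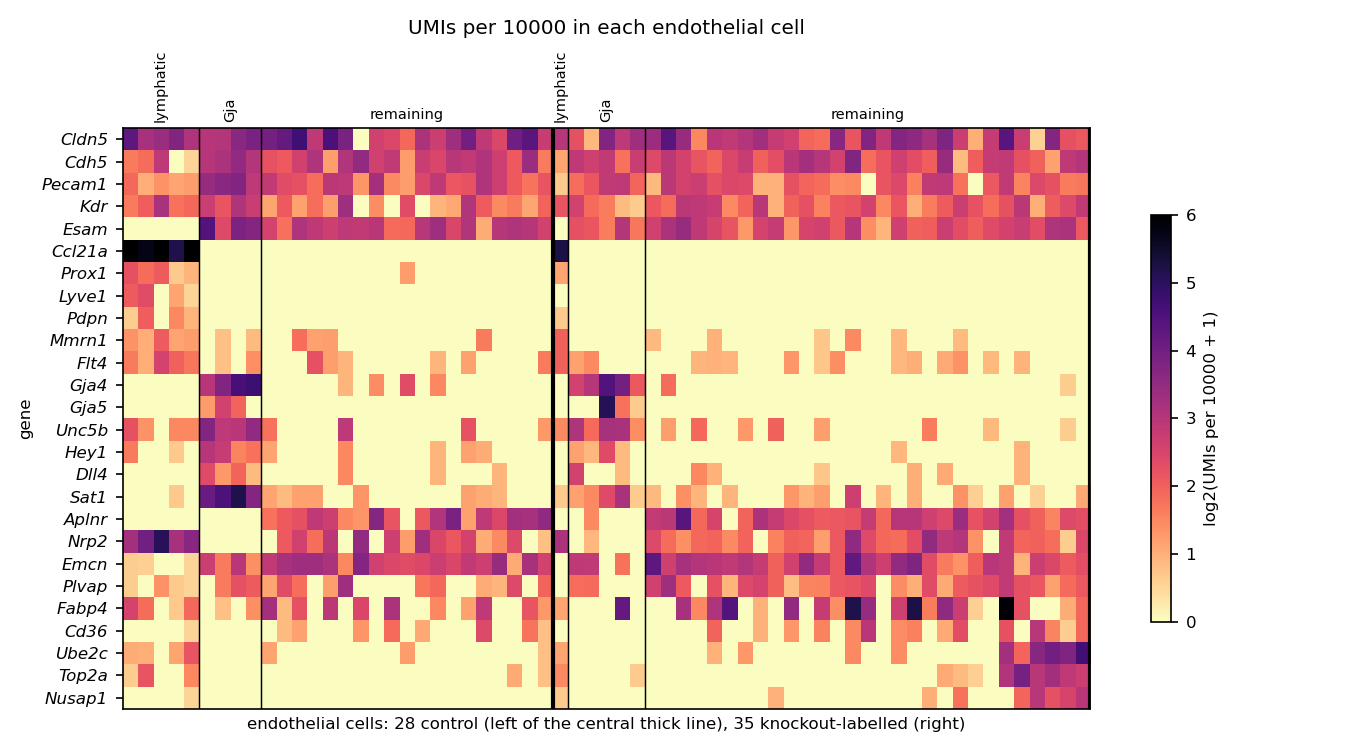
UMIs per 10000 of 26 genes (rows) in each of the 63 endothelial cells (columns), as log2(value + 1) with the colour scale ending at 6. Columns are grouped by library and by the lymphatic, Gja4 and Gja5 and remaining cells, and ordered within a group by the share of UMIs on G2 and mitosis genes. Ccl21a is dark in the 5 control and 1 knockout-labelled lymphatic cells, Esam is blank there, and Ube2c, Top2a and Nusap1 are dark in the last columns of the knockout-labelled library.

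The comparison of the 2 libraries asked how endothelial cells of the Dpy30∆P pancreas differ from those of the control. Of 4050 genes with at least 20 UMIs, 157 were at least 2-fold higher (3.88%) and 88 at least 2-fold lower (2.17%) in the knockout-labelled endothelial cells. Of these, 61 (1.51%) and 30 (0.741%) had Poisson intervals of the CPM that did not overlap. The median log2 ratio over all 4050 genes was 0.002. Poisson intervals treat UMIs as independent, although many can come from 1 cell.

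Pan-endothelial genes did not reach a 2-fold difference between the libraries. Of 28 tested pan-endothelial genes outside the gate 0 were called in either direction, with log2 ratios of -0.68 to 0.78 and a median of 0.02. Over all tested genes 3.88% were called higher and 2.17% lower. Cldn5 had a log2 ratio of -0.65 (interval without the pseudocount -0.89 to -0.42), Pecam1 -0.50 (-0.87 to -0.15), and Cdh5 -0.02 (-0.34 to 0.31). Basement membrane genes had 0 of 13 called and a median of -0.17, and caveola genes 0 of 7 and -0.01.

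Genes of G2 and mitosis were higher in the knockout-labelled endothelium. Of 23 tested list members 21 were at least 2-fold higher, against 3.88% of all tested genes, and 23 were above 0. Their log2 ratios ran from 0.49 to 3.94 with a median of 1.42. For the same genes the medians were 0.10 in mesenchyme and -0.21 in all other kept cells. Nusap1, a spindle protein, had 1 UMI in 1 of 28 control cells and 50 UMIs in 9 of 35 knockout-labelled cells, a log2 ratio of 3.94 (interval 2.67 to 10.54). Ube2c, an enzyme of mitotic exit, stood at 56.2 and 324 CPM (log2 ratio 2.43, 1.79 to 3.35) and Top2a, topoisomerase II, at 46.3 and 191 CPM (1.94, 1.22 to 2.98).

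These UMIs came from few cells. Of the endothelial cells, 7 of 28 and 11 of 35 had a UMI of Ube2c, and a single cell held up to 8 and 44 of its UMIs. Cells with at least 0.3% of their UMIs on the 30 listed genes, a threshold set after seeing the data, numbered 1 of 28 in the control (3.57%, interval 0.0904 to 18.3) and 9 of 35 in the knockout-labelled library (25.7%, 12.5 to 43.3). The control cell is the lymphatic cell with 28 mesenchymal UMIs, and without it the control count was 0 of 27 (exact interval 0 to 12.8). That cell held the only control UMI of Nusap1, and without it Ube2c stood at 32.1 CPM in the control (log2 ratio 3.15), Top2a at 35.7 CPM (2.27), and the median over the list was 2.50. Below the threshold, the highest control cell had 0.245% and the highest knockout-labelled cell 0.231%. At a threshold of 0.2% the counts were 3 of 28 (10.7%) and 10 of 35 (28.6%), and at 0.5% they were 1 of 28 and 9 of 35.

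In other kept cells the share past the threshold was 24.5% in the control and 22.7% in the knockout-labelled library, and in mesenchyme 25.1% and 27.5%. The upper bound of the control endothelium, 18.3%, lay below these values before thinning. After thinning to 3000 UMIs, 1 to 3 control cells (median 2) and 8 to 10 knockout-labelled cells (median 9) passed over 20 draws. In 1 further draw, the one taken over all kept cells, 4 of 28 (14.3%, interval 4.03 to 32.7) and 10 of 35 (28.6%, 14.6 to 46.3) passed against 24.8% and 23.6% of other cells, both within these intervals, from which 39 and 57 cells of under 3000 UMIs were left out. Median depth was 9330 and 11186 UMIs, and the 9 knockout-labelled cells past the threshold had a median of 16887.

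**Figure D4:**
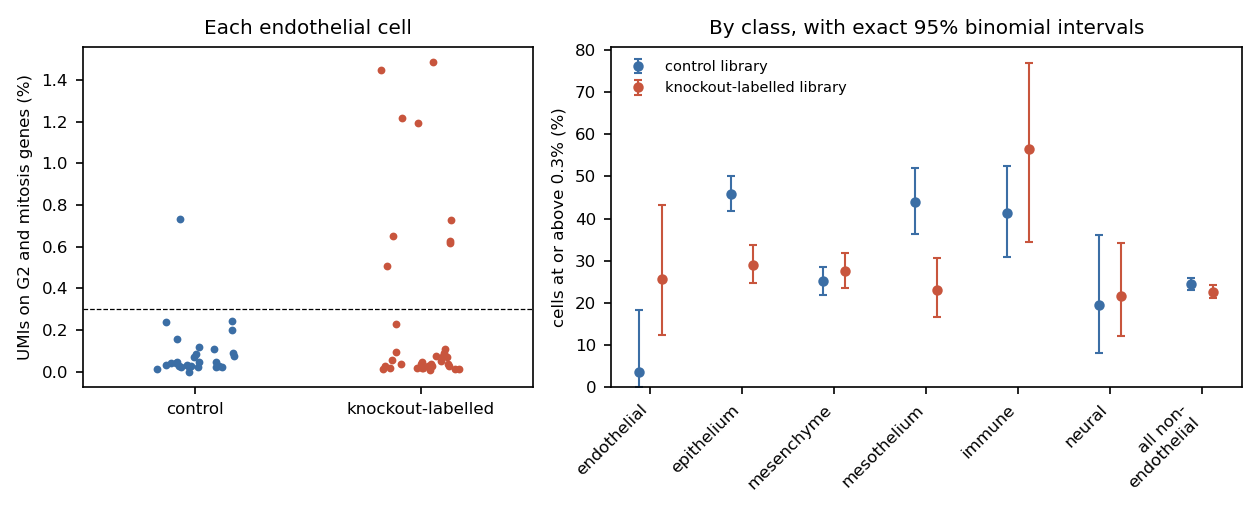
Left, the percentage of UMIs on 30 G2 and mitosis genes in each endothelial cell of both libraries, with the threshold of 0.3% dashed. Right, the percentage of cells at or above 0.3% by class and library with exact 95% binomial intervals, for counting error alone; the endothelial point is at 3.57% in the control and at 25.7% in the knockout-labelled library.

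Leaving out the cells past 0.3% (an alternative chosen after seeing the data) gave the G2 and mitosis genes a median of -1.09. With those cells out, 0 list members were called higher, against 21 before, and 2 were called lower. That alternative removes cells by these same genes. The score from simulated doublets placed the 1 control cell and 2 of the 9 knockout-labelled cells past 0.3% among the barcodes to remove. Without the lymphatic cells the median was 3.57, with 20 called genes, and leaving out, for each gene, the cell with most UMIs of it in each library gave 2.20. S phase genes showed no such difference, with 1 of 15 tested higher, 2 lower and a median of -0.05. Over all tested genes 3.88% were higher and 2.17% lower. The median share of UMIs on S phase genes was 0.0507% and 0.0517% per cell. Birc5, Cenpf, Prc1 and H2afx, further mitotic or chromatin genes, had log2 ratios of 1.84, 1.90, 2.78 and 2.04, and the non-coding RNA Lockd one of 2.22.

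Lymphatic genes were lower in the knockout-labelled endothelium, where 1 lymphatic cell was found against 5 in the control. Ccl21a stood at 1683 and 152 CPM (509 and 62 UMIs) and Prox1 at 59.5 and 4.90 CPM (18 and 2 UMIs). Of 4 tested lymphatic genes 3 were at least 2-fold lower, against 2.17% of all tested genes, and the median of the 4 was -1.93. Without the deepest control cell Prox1 had 16 and 2 UMIs and fell under the minimum of UMIs for testing. The median without that cell, -1.04, therefore left Prox1 out and is not over the same genes as -1.93. Without that cell Ccl21a stood at 1320 CPM in the control (370 UMIs, log2 ratio -3.08) and Prox1 at 57.1 CPM (16 UMIs, log2 ratio -2.65). Stab1 stood at 112 and 39.2 CPM (log2 ratio -1.41), and without the lymphatic cells its ratio was 0.063.

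Arterial genes had 3 of 6 tested members at least 2-fold lower, against 2.17% of all tested genes, and a median of -0.78. The group with Gja4 and Gja5 was of equal share. Gja4 stood at 284 and 120.2 CPM, Hey1 at 95.9 and 17.2 CPM and Unc5b at 228 and 105 CPM. In the 19 and 29 remaining cells Gja4 had 7 and 3 UMIs, Hey1 6 and 2, and Unc5b 14 and 14. In the lymphatic cells, 5 in the control and 1 in the knockout-labelled library, Unc5b had 17 and 3 UMIs, Hey1 5 and 0 and Gja4 0 and 0. Within the group itself Gja4 stood at 1797 CPM in the 4 control cells and 845 CPM in the 5 knockout-labelled cells, and Gja5 at 250.2 and 368 CPM. Of the 20 knockout-labelled UMIs of Gja5 there, 16 came from 1 cell. Another of the 5 knockout-labelled cells held 11 mural and 8 mesenchymal UMIs. The score from simulated doublets placed 0 of the 4 control and 1 of the 5 knockout-labelled cells of the group among the barcodes to remove. Sat1 stood at 344 and 93.2 CPM over all endothelial cells (log2 ratio -1.83), and at 0.41 in log2 ratio once the lymphatic cells and those with Gja4 and Gja5 were left out. Gja1, another connexin gene, stood at 159 and 61.3 CPM (-1.30), and at a log2 ratio of -0.28 without the same cells.

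Isg15, Ifitm3 and Bst2, each known as inducible by interferon, were among the 8 genes that the ranking named as lower in the knockout-labelled endothelium. Isg15, a ubiquitin-like protein, stood at 149 CPM (interval 108.5 to 199) and 22.1 CPM (10.1 to 41.9), was seen in 16 of 28 and 5 of 35 cells and had a log2 ratio of -2.51 (-3.97 to -1.70). Ifitm3, which restricts virus entry, stood at 819.8 and 289 CPM (-1.49) and Bst2, tetherin, at 641 and 245 CPM (-1.37). The same 3 genes were also lower in the mesenchyme of the knockout-labelled library, with log2 ratios of -1.64, -0.87 and -1.41. With the mesenchymal ratio subtracted Isg15 stood at -0.87, Ifitm3 at -0.61 and Bst2 at 0.04, none of them past 2-fold. In mesenchyme Isg15 stood at 11.3 and 0.234 CPM and Bst2 at 23.1 and 5.61 CPM, near the 5 CPM added to each value. That addition draws their mesenchymal ratios toward 0, so the subtracted values of Isg15 and Bst2 depend on it. Of the 45 control UMIs of Isg15, 20 came from the 4 cells with Gja4 and Gja5, while the 5 such knockout-labelled cells had 0. Without those and the lymphatic cells the log2 ratio of Isg15 was -2.16, of Ifitm3 -2.11 and of Bst2 -1.62. Myzap, a junction-associated protein, and Ctsb, a lysosomal protease, had log2 ratios of -1.94 and -1.22 in the endothelium, against 0.06 and 0.06 in mesenchyme. Without the lymphatic cells Ctsb had a log2 ratio of -0.98 and Myzap one of -1.56.

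Among genes of transport, Fabp4 stood at 218 CPM (interval 169 to 278) and 591 CPM (519 to 671), a log2 ratio of 1.42 (1.04 to 1.85), and Cd36 at 49.6 and 132 CPM (1.33). Fabp4 was seen in 17 of 28 and 22 of 35 cells, so the share of cells with a UMI hardly differed while the highest cell held 48 UMIs in the knockout-labelled library against 9 in the control. Tgfb1 stood at 16.5 and 41.7 CPM (5 and 17 UMIs), and the transcription factor Sox18 had 4 and 16 UMIs. Both lay past 2-fold, with intervals of the log2 ratio, -0.16 to 3.13 and -0.06 to 3.61, that include 0. The transcription factor Lyl1 was higher, with 11 and 32 UMIs (interval 0.08 to 2.25), and Bcl6b lower, with 28 and 17 UMIs (-2.11 to -0.23). Erythroid genes were higher for 4 of 4 tested, against 3.88% of all tested genes, with a median of 1.61. In the other kept cells the median of the same genes was 1.75.

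Of the 6 tested COMPASS subunits, Wdr5, with 4 and 16 UMIs, and Men1, with 13 and 7 UMIs, lay past 2-fold in opposite directions, but the intervals of their log2 ratios, -0.06 to 3.61 and -2.89 to 0.11, include 0. Ash2l stood at 46.3 and 63.8 CPM (log2 ratio 0.42) and Kmt2a at 26.4 and 39.2 CPM (0.49). The other 13 of 19 list members had fewer than 20 UMIs over both libraries.

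**Figure D5:**
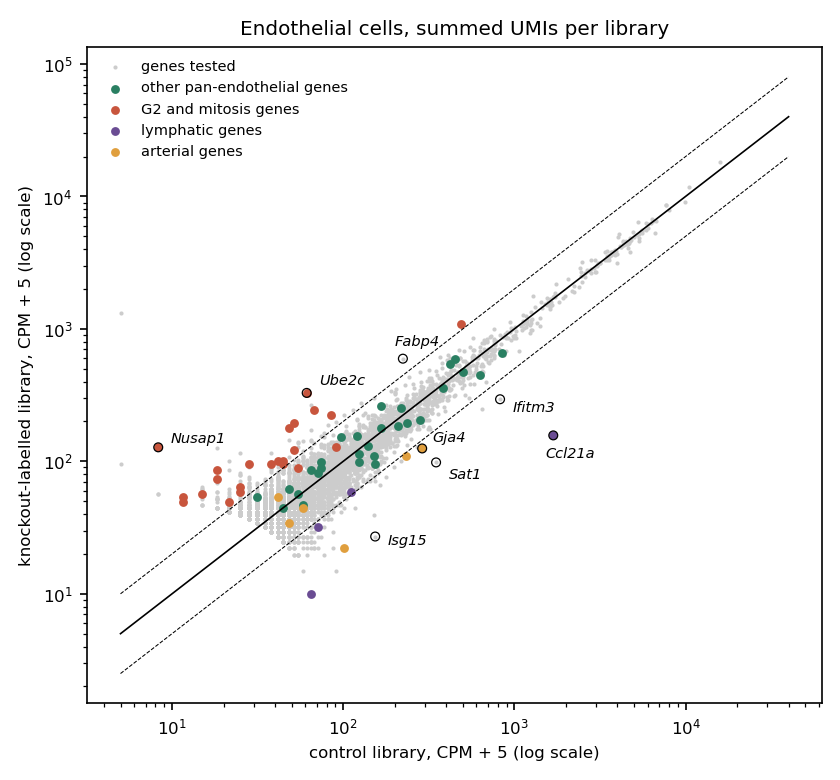
Endothelial CPM + 5 in the control library (x axis, log scale) against the knockout-labelled library (y axis, log scale) for 4050 tested genes, with equality as a solid line and 2-fold differences dashed. Pan-endothelial genes lie between the dashed lines, 21 of 23 G2 and mitosis genes lie above the upper line, and Ccl21a, Isg15, Sat1 and Ifitm3 lie below the lower line.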

How the data were processed

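Live cells of 1 control and 1 knockout-titled embryonic pancreas were profiled on the 10x 3' platform. The deposited matrices hold unnormalised UMI counts for each gene in each barcode. Cell Ranger, Seurat 2, Seurat 3, GRCm38 and mm10 are named, per the submitters' processing notes, with no role or order. The Cell Ranger version and annotation were not given in the sources used here. A cluster gene table by the authors lists none of Pecam1, Cdh5, Kdr or Cldn5 and was not used.

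Counts were summed over the endothelial cells of each library, scaled to CPM and compared as log2((CPM + 5)/(CPM + 5)). A gene needed at least 20 endothelial UMIs over both libraries, or, against other cells, 50 CPM in the other cells of both. Poisson, Clopper-Pearson and ratio intervals are exact or log-normal, at 95%, and cover counting error alone. Molecules are counted by UMI, but cells of 1 embryo are not replicates, so no test was run.

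Named genes were the 24 with the highest ratio over other cells in the lower library (seen in at least 25% of endothelial cells), the 10 lowest (at least 200 CPM in other cells), and the 8 highest and 8 lowest ratios between libraries (at least 50 UMIs, seen in at least 20% of the cells of 1 library). Ribosomal, mitochondrial, haemoglobin, sex-marker and unnamed genes were left out of the ranking, and list members may be named as examples. Of the genes so chosen, 1 is not reported here. The members, lists and thresholds were chosen with earlier results of these data known. Doublets were kept, and a score from simulated doublets was used as an alternative only, removing 122 and 74 cells.

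The comparison between libraries was run on independent Poisson counts simulated for 4050 genes. Such counts are not clustered in cells as the real UMIs are, so coverage near 95% was set by the construction. The 95% Poisson interval of the simulated knockout-labelled CPM held the true CPM for 96.3% of 3850 unchanged genes. It did so for 94% of 100 genes at 2-fold and 95% of 100 at 4-fold. Intervals of the ratio were not checked. In the same order, 1.4%, 46% and 99% of the genes came out at least 2-fold higher. Software was Python 3.11.15, numpy 2.4.6, scipy 1.17.1, pandas 2.3.3, scikit-learn 1.9.0, matplotlib 3.10.9, and R 4.3.3 with edgeR 4.0.16 for TMM scaling factors as an alternative. Gene coordinates are from GENCODE on GRCm38, and promoters are the first RefSeq entry of each gene.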

Additional observations from a re-analysis of the deposited data

How the results depend on the processing

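No paired analysis was possible because each group is 1 library. The alternatives numbered 30, with 11 more chosen after seeing the data. The ratio of endothelial shares ran from 1.60 to 1.78 over the alternatives of gate, cell filter, thinning and doublet removal. With CPM free of haemoglobin, mitochondrial and ribosomal protein genes, 329 genes were lower in endothelial than other cells. At a minimum of 100 UMIs per gene 143 genes were higher. Genes of at least 50 CPM in the other cells stayed in, and fewer genes were tested. The medians were then -0.34 and -0.31 for the BMP and TGF-beta pathway and -2.49 and -1.88 for Notch. Between libraries, 71 genes were higher and 35 lower with a pseudocount of 20 CPM, 630 and 452 at a minimum of 5 UMIs, and 13 and 8 at a minimum of 100 UMIs. With the mesenchymal ratio subtracted Isg15 was at -0.87, Ifitm3 at -0.61 and Bst2 at 0.037. For Isg15 and Bst2 these values depend on the pseudocount, since their mesenchymal CPM was low. Without the lymphatic cells Stab1 was at 0.063, and without these and the cells with Gja4 and Gja5 Stab1 was at 0.25 and Sat1 at 0.41. Without the cells past 0.3% G2 and mitosis UMIs, 90 genes were higher, the median of those genes was -1.09, Birc5 was at -1.37, Top2a at -1.33, Ube2c at -0.65 and H2afx at -0.026. The share of knockout-labelled cells with lymphatic genes was 0 after thinning, and the control share past 0.3% was 0 without the cells of 5 or more mesenchymal UMIs and likewise 0 without the lymphatic cells or without the deepest control cell. The cause was not tested beyond these constructions. With 63 cells, genes of a few UMIs per library cannot be compared at this depth.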
